A study of Homo sapiens with 12 samples.

Results

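Transporter genes of the SLC16 family (SLC16A1, SLC16A3, SLC16A4, SLC16A6, SLC16A7 and SLC16A9) were followed through proliferating and senescent human fibroblasts. With these 6 genes for monocarboxylate transporters went BSG, for basigin, a chaperone of several such transporters, and the lactate dehydrogenase genes LDHA and LDHB. The 9 members were taken by symbol from a table of raw counts for 57500 genes. Each symbol matched 1 Ensembl identifier, and all 9 were among the 16251 genes that passed the filter on low counts. UK5099 lowered LDHA 2.24-fold and raised SLC16A9 5.42-fold in senescent cells. SLC16A4 was 6.62-fold higher in irradiated senescent cells than in proliferating cells.

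Lactate dehydrogenase converts pyruvate and NADH to lactate and NAD+, and runs in either direction. LDHA encodes the muscle-type subunit, usually linked to lactate formation in glycolytic cells, and LDHB encodes the heart-type subunit, usually linked to lactate oxidation. Lactate and pyruvate cross the plasma membrane with a proton through monocarboxylate transporters. The transporter encoded by SLC16A3 is known for lactate export from glycolytic cells, that of SLC16A1 is the widespread lactate and pyruvate carrier, and that of SLC16A7 binds pyruvate with high affinity. Basigin escorts several of these carriers to the cell surface. Pyruvate can also enter mitochondria through the mitochondrial pyruvate carrier, which the study inhibited with UK5099. Other actions of UK5099 at the dose used were not tested here.

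The cells were MRC5, a human embryonic lung fibroblast line, in 4 groups of 3 libraries. They were proliferating cells without irradiation (Prol), senescent cells after X-rays (Sen(IR)), and senescent cells that also received an inhibitor (Sen(IR)+UK5099 and Sen(IR)+CTPI2). CTPI2 inhibits the citrate carrier of mitochondria, SLC25A1. According to the methods, the dose of X-rays was 20 Gy, cells were collected 10 to 12 days later, and inhibitors were added 1 day after irradiation, with UK5099 at 100 μM and CTPI2 at 15 or 30 μM. The CTPI2 dose that was sequenced and the vehicle given to Sen(IR) cells are not stated. All groups come from 1 cell line, and the p-values rest on the spread between libraries within groups, estimated in 1 fit of all 12 libraries. The study's legend for the CTPI2 heatmaps speaks of independent experiments, and that for the UK5099 heatmaps of independent conditions. The labels do not say whether the libraries came from separate cultures.

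Library totals ran from 20597736 to 28245693 counts, and libraries of a group varied with a biological coefficient of variation of 6.12% in the fit. Levels are given in CPM, a gene's count per 1000000 counts of the library's TMM-scaled total, and differences as log2 fold changes of the group named first minus the other. A member was called where edgeR's quasi-likelihood test gave an adjusted p under 0.05 and the absolute log2 fold change exceeded 0.5. The labels held against their markers: all 11 fibroblast markers were detected in every group, CDKN1A, the arrest gene encoding p21, was higher in Sen(IR) (1054 CPM) than in Prol (315 CPM), and MKI67, CCNA2, CDK1 and LMNB1, genes of dividing cells, fell. The 6 epithelial markers summed to at most 2.23 CPM and the 6 leukocyte markers to at most 5.07 CPM, while the sum of the 5 endothelial markers was almost all TEK, at 172 CPM in Prol and 360 CPM in Sen(IR), with CDH5 at 0 in Prol and in Sen(IR)+UK5099. Both of the latter sums moved with the groups. The endothelial sum ran from 157 to 205 CPM in Prol libraries, from 355 to 367 CPM in those of Sen(IR), from 207 to 236 CPM under UK5099 and from 300 to 330 CPM under CTPI2. In the same order the leukocyte sum was 0.186 to 0.3, 3.28 to 3.98, 2.48 to 3.3 and 3.89 to 5.07 CPM, most of it CD14. Their part in the members' differences was not tested.

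Against Prol, Sen(IR) cells had more transcript of most of the transporters and of BSG, and less of both dehydrogenases. This comparison is written as senescence below, although irradiation and arrest differ together in it and cannot be told apart. The edgeR test called 5 of the 9 members higher, SLC16A3, SLC16A4, SLC16A6, SLC16A9 and BSG, and 1 lower, LDHA. Of all genes tested, 24.8% were called higher and 22.4% lower in this comparison. With a fold limit of 1, 3 members and 24.8% of all genes were called. The median log2 fold change was 0.68 over the 9 members and 0.01 over all genes tested.

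SLC16A4, an SLC16 carrier whose substrate is not settled, rose the most (ENSG00000168679, GRCh38 chromosome 1, 110362851 to 110391082, minus strand). Its levels were 11.5, 14.8 and 11.5 CPM in Prol and 82.7, 79.6 and 87.2 CPM in Sen(IR). Every Sen(IR) library lay far above every Prol library, with a log2 fold change of 2.73 (SE 0.08, edgeR adjusted p 4.2e-18). SLC16A9, a carrier linked to carnitine (ENSG00000165449, GRCh38 chromosome 10, 59650764 to 59736002, minus strand), was near the bottom of the measured range in Prol at 1.32, 1.72 and 1.15 CPM. It stood at 5.07, 5.4 and 5.1 CPM in Sen(IR), again without overlap (log2 fold change 1.90, SE 0.157, edgeR adjusted p 3.47e-10). SLC16A3, the lactate exporter (ENSG00000141526, GRCh38 chromosome 17, 82217934 to 82261129, plus strand), went from 118, 108 and 127 CPM to 246, 237 and 241 CPM. That is a 2.05-fold rise beyond the spread between libraries (log2 fold change 1.03, SE 0.0642, edgeR adjusted p 2.39e-12).

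SLC16A6, a carrier linked to ketone bodies (ENSG00000108932, GRCh38 chromosome 17, 68267026 to 68291267, minus strand), rose 1.7-fold, from 58.2 ± 2.31 CPM (SD, n = 3) to 99.1 ± 4.95 CPM (SD, n = 3; log2 fold change 0.77, SE 0.0596, edgeR adjusted p 1.13e-10). BSG (ENSG00000172270, GRCh38 chromosome 19, 571277 to 583494, plus strand) had 307, 328 and 324 CPM in Prol and 520, 507 and 514 CPM in Sen(IR). It rose by a log2 fold change of 0.68 (SE 0.0481, edgeR adjusted p 2.09e-11). SLC16A1 (ENSG00000155380, GRCh38 chromosome 1, 112911847 to 112957593, minus strand) had 92.8 ± 4.95 CPM in Prol and 90.3 ± 4.1 CPM in Sen(IR). Its libraries overlapped, and the difference of −0.04 (95% interval −0.16 to 0.08, edgeR adjusted p 0.554) had no stable sign, since upper-quartile scaling gave 0.08 and library totals gave 0.0046. SLC16A7 (ENSG00000118596, GRCh38 chromosome 12, 59596029 to 59789855, plus strand) was the transporter with less transcript in Sen(IR), at 21.2, 23 and 23.5 CPM against 32.6, 31.8 and 27.4 CPM in Prol. The libraries did not overlap, but the log2 fold change of −0.44 (SE 0.111, edgeR adjusted p 0.00136) was under the fold limit, and it passed the limit only without Prol replicate 3 (−0.52).

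LDHA (ENSG00000134333, GRCh38 chromosome 11, 18394560 to 18408425, plus strand) had the highest CPM of the members in every group other than Sen(IR)+UK5099, where BSG and LDHB were above it. Its levels were 1240, 1281 and 1369 CPM in Prol and 831, 843 and 841 CPM in Sen(IR), a fall without overlap (log2 fold change −0.63, SE 0.049, edgeR adjusted p 1.2e-10). LDHB (ENSG00000111716, GRCh38 chromosome 12, 21635342 to 21757857, minus strand) had 580, 632 and 664 CPM in Prol and 462, 470 and 486 CPM in Sen(IR). It was lower in every Sen(IR) library, by −0.40 (SE 0.052, edgeR adjusted p 4.1e-07), under the fold limit.

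**Figure D1:**
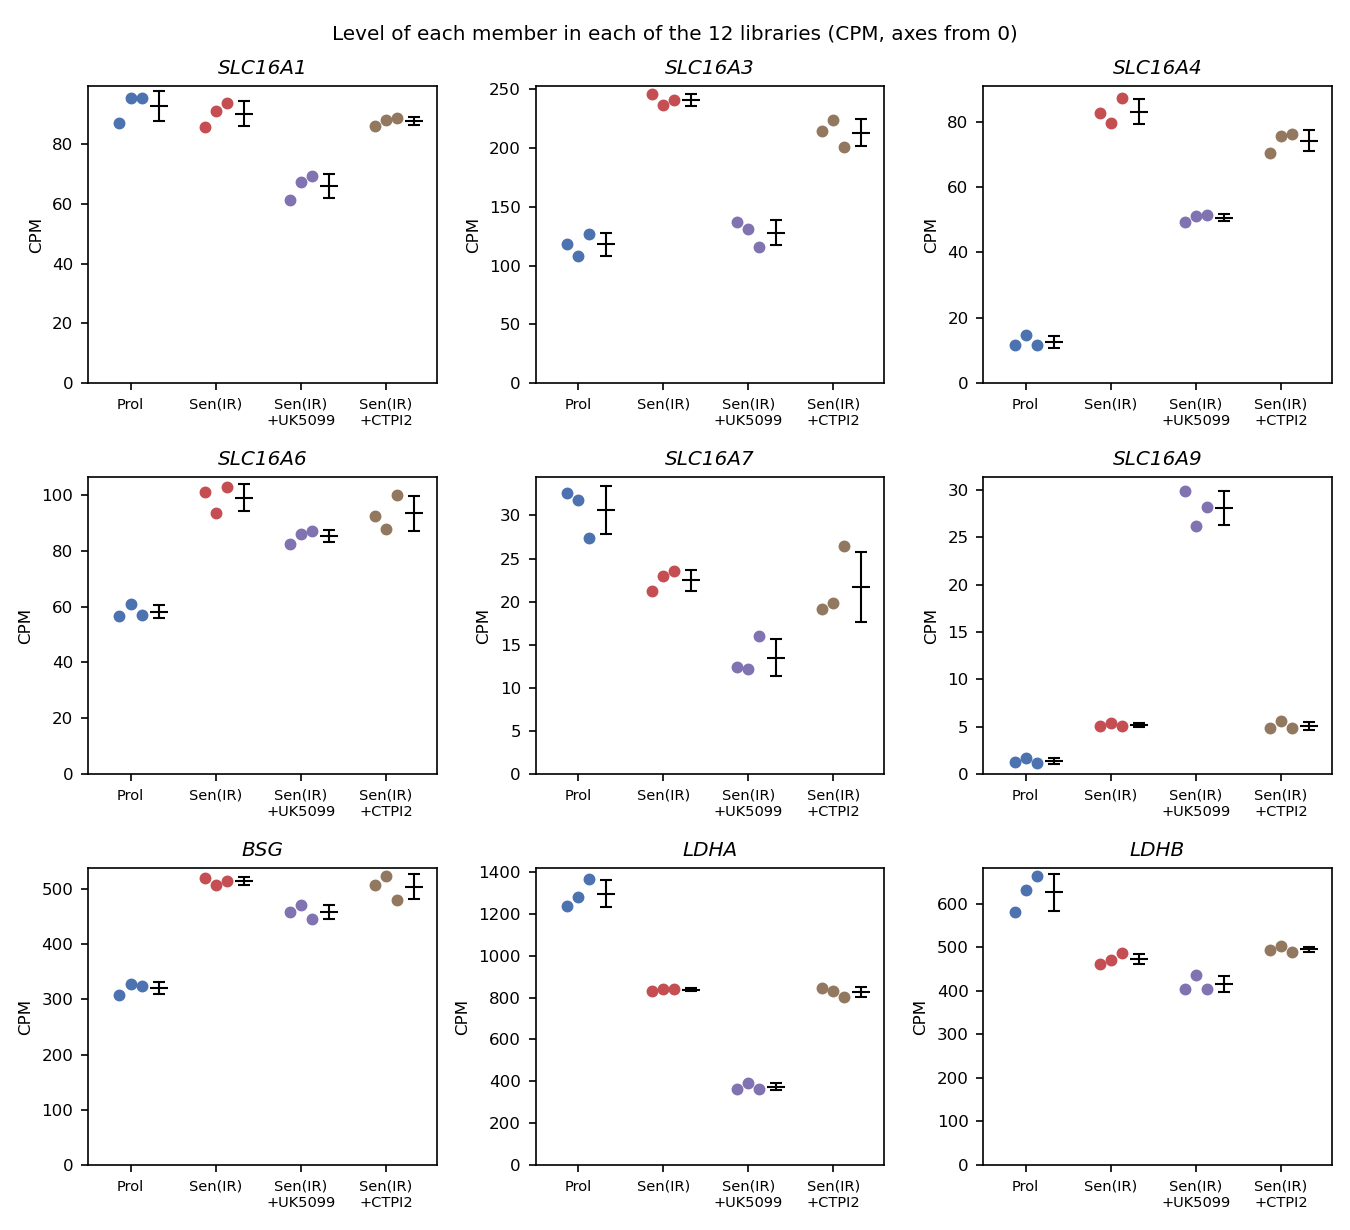
Level of each of the 9 members in the 12 libraries, in CPM on axes that start at 0, with points for libraries and bars for the mean and SD of each group (n = 3). LDHA has 1297 CPM in Prol but 375 CPM in Sen(IR)+UK5099, SLC16A9 stands at 28.1 CPM with UK5099 against 5.19 CPM in Sen(IR), and the CTPI2 libraries lie beside those of Sen(IR).

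UK5099 moved the members of senescent cells in opposite directions: SLC16A9 rose, while LDHA, SLC16A3, SLC16A7 and SLC16A4 fell. These are 1 member called higher and 4 called lower of 9, where 8.76% of all genes tested were called higher and 12.1% lower. The other 4 members had adjusted p under 0.05 with smaller differences, so that all 9 passed the adjusted p alone, as did 45.4% of all genes tested. For all 9 the 2 groups of libraries did not overlap, which held for 56.6% of all genes tested. With a fold limit of 1, 2 members and 9.3% of all genes were called. The median log2 fold change was −0.45 over the members and 0.01 over all genes tested.

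LDHA had 365, 394 and 365 CPM with UK5099, against at least 831 CPM in each Sen(IR) library. The log2 fold change was −1.16 (SE 0.0497, 95% interval −1.26 to −1.06, edgeR adjusted p 1.54e-14). LDHB changed less, with 405, 437 and 403 CPM under UK5099, a difference of −0.19 on the log2 scale (SE 0.0521, 95% interval −0.30 to −0.08, edgeR adjusted p 0.00554). The 95% intervals of the LDHA and LDHB differences are far apart, although the difference between them was not itself tested. Transcript levels do not measure lactate, and the paper reports raised lactate in senescent cells given UK5099.

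The balance of the LDHA and LDHB transcripts was therefore set out by library. Levels of different genes were compared per kilobase of annotated exon, with 6026 bases for LDHA and 2983 for LDHB in the union of exons of GENCODE v44. On that scale LDHA made up 51.4, 50.1 and 50.5% of LDHA plus LDHB in Prol, 47.1, 47 and 46.1% in Sen(IR), 30.9, 30.9 and 30.9% with UK5099 and 45.9, 45.2 and 44.8% with CTPI2. The UK5099 libraries lay below all others, the CTPI2 libraries just below those of Sen(IR), and the Prol libraries above both. The sum of LDHA and LDHB was 425 ± 24.7 CPM per kb in Prol, 298 ± 4.8 in Sen(IR), 201 ± 9.06 with UK5099 and 303 ± 5.26 with CTPI2 (SD, n = 3). The size of the share depends on the length used: with the length of the canonical transcript it was 54.7, 50.8, 34.4 and 49.3% in the same order of groups, and the order of the groups was the same. LDHB shares 33.4% of its exon bases with a gene of the same strand in GENCODE v44, and how the counting treated these bases is not known. With those bases left out of its length, the share was 40.6, 36.9, 22.9 and 35.5%, again in the same order. These shares of transcript are a description, with no test, and do not measure the subunit proteins.

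**Figure D2:**
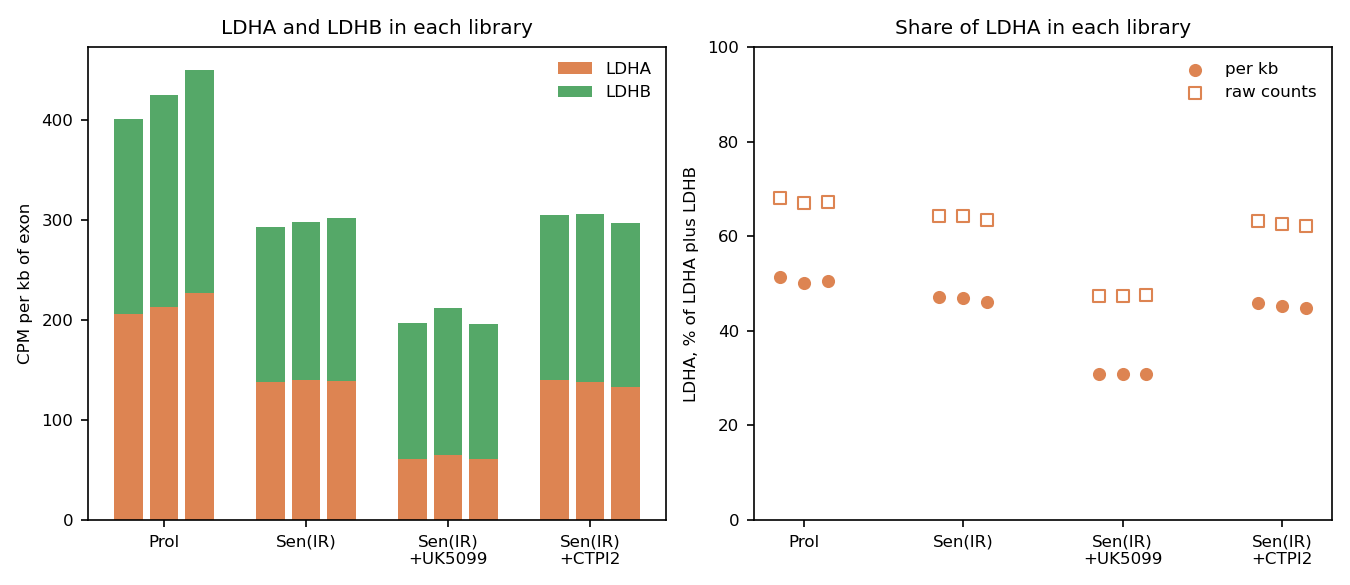
Left, LDHA and LDHB stacked in each of the 12 libraries in CPM per kb of exon, on an axis from 0; right, LDHA as a percentage of LDHA plus LDHB in each library, per kb (filled) and from raw counts (open). With UK5099 the LDHA share per kb is 30.9% in every library, below the 46.1 to 47.1% of Sen(IR).

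Among the transporters, SLC16A9 had 29.9, 26.2 and 28.2 CPM with UK5099, above every library of the other 3 groups. Its log2 fold change was 2.44 (SE 0.108, 95% interval 2.21 to 2.66, edgeR adjusted p 2.92e-14). SLC16A3 had 137, 131 and 116 CPM with UK5099, below every Sen(IR) library (log2 fold change −0.92, SE 0.0639, edgeR adjusted p 7.67e-11). SLC16A7 fell to 12.4, 12.2 and 16 CPM, a log2 fold change of −0.74 (SE 0.119, edgeR adjusted p 2.48e-05).

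SLC16A4 fell to 49.4, 51.2 and 51.4 CPM (log2 fold change −0.72, SE 0.0698, edgeR adjusted p 2.05e-08), still above the Prol libraries. SLC16A1, which was not called with senescence, was at 61.5, 67.4 and 69.3 CPM with UK5099, below every other library in the study. Its log2 fold change of −0.45 (SE 0.059, edgeR adjusted p 1.73e-06) was under the fold limit. SLC16A6 (−0.22, SE 0.0584, edgeR adjusted p 0.00413) and BSG (−0.17, SE 0.0477, edgeR adjusted p 0.00708) were also under it, with BSG at 458, 470 and 446 CPM.

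Per kilobase, the 6 transporters summed to 48.3 ± 1.32 CPM per kb in Prol, 94 ± 2.76 in Sen(IR), 69 ± 0.427 with UK5099 and 86.2 ± 1.63 with CTPI2 (SD, n = 3). SLC16A1 made up 30.3% of this sum in Prol and 15.1% in Sen(IR), whereas SLC16A4 went from 8.23 to 28%. SLC16A9 made up 0.688% in Prol, 1.32% in Sen(IR), 9.72% with UK5099 and 1.4% with CTPI2. The ratio of SLC16A1 to SLC16A3 per kb was 1.15 ± 0.116 in Prol, 0.544 ± 0.0331 in Sen(IR), 0.757 ± 0.106 with UK5099 and 0.6 ± 0.0368 with CTPI2 (SD, n = 3). Whether SLC16A1 exceeded SLC16A3 in Prol depends on the length used, because canonical transcripts gave a ratio of 0.547.

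UK5099 also lowered some of the genes by which the fibroblast is known. Of the 11 fibroblast markers, 6 were called lower (COL1A1, COL1A2, COL3A1, PDGFRA, THY1 and S100A4), and the summed level ran from 20994 to 21637 CPM in Sen(IR) and from 11287 to 11818 CPM with UK5099. The other 5 markers were not called. From Sen(IR) to Sen(IR)+UK5099, DCN went from 1362 to 1361 CPM, LUM from 356 to 370 CPM and PDGFRB from 156 to 162 CPM. VIM went from 3060 to 2778 CPM and FBN1 from 486 to 411 CPM. Of all genes tested, 12.1% were called lower with UK5099. The 4 genes of dividing cells fell further below their Sen(IR) levels with UK5099 as well. The part of these shifts in the members' differences was not tested. In bulk libraries, fewer cells of a type and less RNA per cell cannot be told apart.

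CTPI2 gave no call among the 9 members with edgeR or with DESeq2, where 0.0185% of all genes tested were called higher and 0.148% lower. At an unadjusted p under 0.05 there were 2, SLC16A3 (−0.18, SE 0.0629, unadjusted p 0.0097, edgeR adjusted p 0.422) and SLC16A4 (−0.17, SE 0.0687, unadjusted p 0.0254, edgeR adjusted p 0.587). The 3 CTPI2 libraries had 215, 224 and 201 CPM of SLC16A3, all below those of Sen(IR). LDHA was at 846, 834 and 801 CPM, overlapping Sen(IR), with a difference of −0.02 (95% interval −0.12 to 0.08). LDHB was at 493, 502 and 489 CPM, above every Sen(IR) library, with a difference of 0.07 (95% interval −0.04 to 0.17). Across the 9 members the 95% intervals lay between −0.31 and 0.23. The intervals of SLC16A3 (−0.31 to −0.05) and SLC16A4 (−0.31 to −0.02) lay below 0, and those of the other 7 members included it.

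**Figure D3:**
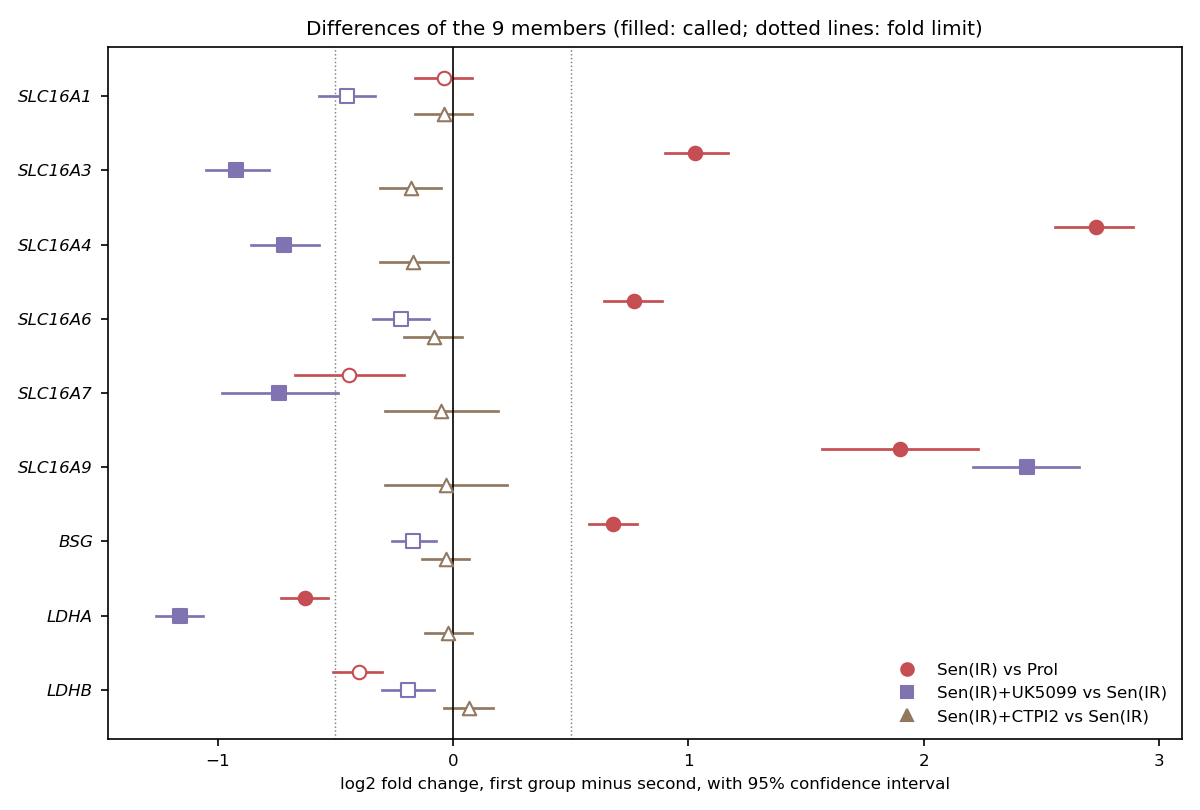
Log2 fold change of each member with its 95% interval for Sen(IR) against Prol (circles), Sen(IR)+UK5099 against Sen(IR) (squares) and Sen(IR)+CTPI2 against Sen(IR) (triangles), filled where called, with dotted lines at the fold limit of 0.5. SLC16A9 lies to the right for senescence (1.90) and for UK5099 (2.44), LDHA to the left for both (−0.63 and −1.16), and every CTPI2 symbol is open. Both inhibitor comparisons use the same 3 Sen(IR) libraries.

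The inhibitors were also compared directly. Against Sen(IR)+CTPI2, the test called 1 member higher and 4 lower with UK5099, with 8.2% of all genes called higher and 11.7% lower. With a fold limit of 1 these were 2 members and 8.72% of all genes, and with none, 8 members and 44.5%. SLC16A9 was 5.53-fold higher (log2 fold change 2.47, SE 0.107, edgeR adjusted p 2.47e-14). LDHA was 2.21-fold lower (−1.14, SE 0.0497, edgeR adjusted p 2.54e-14). SLC16A3 (−0.74), SLC16A7 (−0.69) and SLC16A4 (−0.55) were the others called lower. The call of SLC16A4 was lost where libraries were scaled by their totals alone (−0.48). SLC16A6 did not pass (−0.13, 95% interval −0.25 to −0.01, edgeR adjusted p 0.0683).

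Set against Prol, UK5099-treated senescent cells had 4 members called higher and 3 lower, where 26.9% of all genes tested were called higher and 26.2% lower, and at a fold limit of 1 there were 4 members and 30.6% of all genes. SLC16A9 was 20.2-fold higher than in Prol (log2 fold change 4.34, SE 0.13, edgeR adjusted p 4.07e-18), SLC16A4 4.03-fold higher (2.01, SE 0.0805, edgeR adjusted p 6.53e-16). LDHA was 3.46-fold lower (−1.79, SE 0.0504, edgeR adjusted p 1.31e-18), followed by SLC16A7 (−1.18) and LDHB (−0.59). The call of LDHB was lost with upper-quartile scaling (−0.45) and with library totals (−0.46). SLC16A3 libraries of these groups overlapped, with a difference of 0.12 (95% interval −0.02 to 0.25, edgeR adjusted p 0.107). BSG (0.52) and SLC16A6 (0.55) lay close to the fold limit, and the call of BSG was lost without Prol replicate 1 (0.49) or Sen(IR)+UK5099 replicate 2 (0.50). CTPI2-treated cells had 5 members higher and 1 lower than Prol, with 24.8% and 21.9% of all genes called in these directions, and at a fold limit of 1, 2 members and 24.8% of all genes. The members with the highest values were again SLC16A4 (2.56) and SLC16A9 (1.87), and LDHA was lower (−0.65).

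The 4 group means of each member fell in these orders. SLC16A3, SLC16A4, SLC16A6 and BSG were lowest in Prol, then Sen(IR)+UK5099, Sen(IR)+CTPI2 and Sen(IR). SLC16A1, SLC16A7 and LDHA ran from Sen(IR)+UK5099 through Sen(IR)+CTPI2 and Sen(IR) to Prol, and LDHB likewise, with Sen(IR) and Sen(IR)+CTPI2 exchanged. SLC16A9 alone was highest with UK5099, above Sen(IR), Sen(IR)+CTPI2 and Prol. Sen(IR) and Sen(IR)+CTPI2 were not told apart by the test for any member, nor were Prol and Sen(IR)+UK5099 for SLC16A3, Prol and either of the former for SLC16A1, or Sen(IR)+UK5099 and Sen(IR)+CTPI2 for SLC16A6.

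Further carriers were listed beside the members: the remaining SLC16 genes, known for lactate (SLC16A8), thyroid hormone, amino acid, creatine or still unassigned substrates, the sodium-coupled monocarboxylate carriers SLC5A8 and SLC5A12, and EMB, which encodes embigin, a relative of basigin that partners the SLC16A7 product. Of these 11 genes, 6 passed the filter on low counts, and SLC5A8 had no count in any library. Senescence raised 2, EMB (log2 fold change 2.22) and SLC16A5 (0.68). EMB levels were near the bottom of the measured range, with 0.367 CPM in Prol and 1.78 CPM after irradiation. UK5099 raised 3 and lowered 1: SLC16A13 (1.76), SLC16A14 (1.66) and SLC16A5 (1.04) rose and SLC16A12 (−0.96) fell. The most abundant of these, SLC16A14, had 17.3 ± 0.36 CPM in Sen(IR), and 54.6 ± 0.782 CPM when UK5099 was present (SD, n = 3; SE 0.0835, edgeR adjusted p 2.82e-13), while it had 16.5 ± 2.32 CPM in Prol. SLC16A12, SLC16A13 and SLC16A5 had low levels, at 1.03, 1.14 and 2.54 CPM in Sen(IR) and 0.521, 3.88 and 5.19 CPM with UK5099. Of all genes tested, 24.8% were called higher and 22.4% lower with senescence, and 8.76% and 12.1% with UK5099. The list's median was 0.21 for senescence, 0.61 for UK5099 and 0.12 for CTPI2. With CTPI2 none of the 6 was called by edgeR or DESeq2, and none had an unadjusted p under 0.05. Of 5 further genes for other lactate dehydrogenases and the lactate receptor, only LDHC passed the filter, with 0.896 CPM in Prol and 1.43 CPM in Sen(IR). LDHC was not called in any comparison by edgeR or DESeq2, and had an unadjusted p under 0.05 where Sen(IR) or Sen(IR)+UK5099 was set against Prol.

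Genes that make or use pyruvate were rarely called with senescence, where 24.8% of all genes tested were called higher and 22.4% lower. Of 14 tested, 1 was called higher, MPC2 (0.55), a subunit of the mitochondrial pyruvate carrier. At an unadjusted p under 0.05 in the edgeR test there were 11, so smaller shifts were frequent. UK5099 lowered 2, PDHX (−0.80), a structural component of the pyruvate dehydrogenase complex, and PKM (−0.69), which makes pyruvate, from 2461 to 1523 CPM. It raised 2, PC (0.75), pyruvate carboxylase, and ME3 (0.59), a mitochondrial malic enzyme. With UK5099, 10 of the 14 had an unadjusted p under 0.05, and 8.76% of all genes tested were called higher and 12.1% lower. With CTPI2, 0 of the 14 were called by edgeR or DESeq2 and 2 had an unadjusted p under 0.05. The medians of this list were −0.20, −0.02 and 0.01 for senescence, UK5099 and CTPI2.

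The glycerol phosphate and malate-aspartate shuttles are further routes that reoxidise NADH of the cytosol. Of 9 tested genes, senescence lowered 3, SLC25A13 (−1.17), a mitochondrial aspartate-glutamate carrier, GPD2 (−0.74), the mitochondrial glycerol phosphate dehydrogenase, and GOT1 (−0.57), and raised 1, GPD1L (0.70). At an unadjusted p under 0.05 in the edgeR test there were 5, and 24.8% of all genes tested were called higher and 22.4% lower with senescence. With UK5099, 1 was called higher, GPD1L (0.53), and 7 had an unadjusted p under 0.05. Of all genes tested, 8.76% were called higher and 12.1% lower with UK5099. With CTPI2, 0 were called by edgeR or DESeq2 and none had an unadjusted p under 0.05. The medians were −0.13, −0.20 and −0.00.

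LDHA and SLC16A3 are textbook targets of hypoxia-inducible factor HIF-1, so other targets were listed beside them. Of 20 tested, 13 were called higher and 1 lower in Sen(IR) than in Prol, led by ANGPTL4 (4.08), CA9 (1.87) and BNIP3L (1.71). The gene that fell was ENO1 (−0.95), named after the values were seen. CA9 was near the bottom of the measured range, with 0.153 CPM in Prol and 0.558 CPM in Sen(IR), and ANGPTL4 had 1.32 CPM in Prol. Of all genes tested, 24.8% were called higher and 22.4% lower in this comparison. UK5099 lowered 11 of the 20 and raised 1, with P4HA1 (−1.42), HK2 (−1.41) and VEGFA (−1.41) furthest down and ALDOC, also named after the values were seen, higher (0.63). P4HA1, a collagen prolyl hydroxylase, was at 262 ± 16.2 CPM in Prol, 609 ± 2.32 in Sen(IR), 228 ± 10.3 with UK5099 and 538 ± 18.1 with CTPI2 (SD, n = 3). HK2, the hexokinase that starts glycolysis, was at 72.6, 197, 74.4 and 178 CPM in the same order of groups. The median difference of the list was 0.77 for senescence, −0.59 for UK5099 and −0.06 for CTPI2, against 0.01, 0.01 and 0.00 over all genes. SLC16A3 moved in the direction of the list's medians, up with senescence (1.03) and down with UK5099 (−0.92), whereas LDHA fell in both comparisons, as ENO1 did. The genes called higher with senescence and those called lower with UK5099 were not all the same. ANGPTL4 and BNIP3L were not called with UK5099, where 8.76% of all genes tested were called higher and 12.1% lower. With CTPI2, 0 of the 20 were called by edgeR or DESeq2 and 3 had an unadjusted p under 0.05 (HK2, PFKFB4 and P4HA1).

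**Figure D4:**
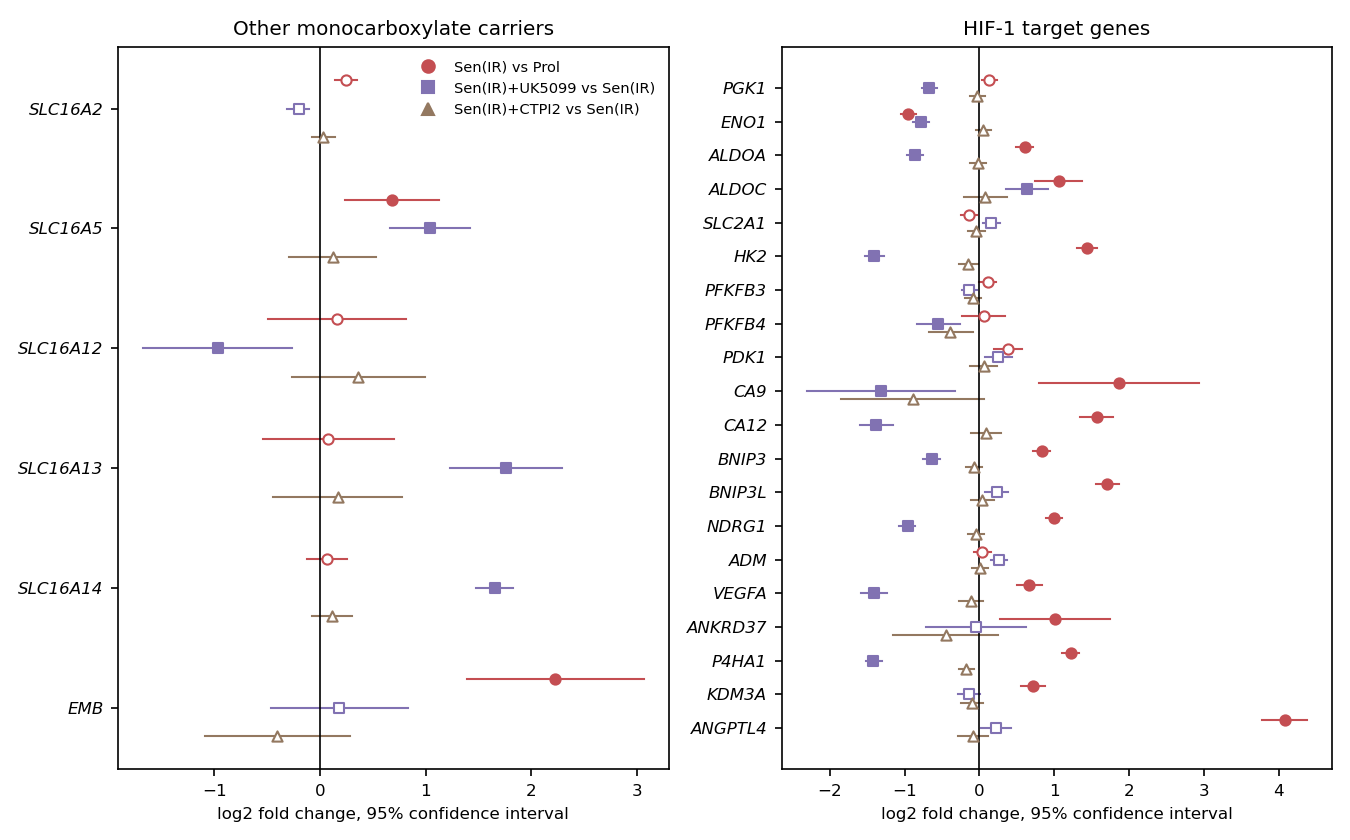
Log2 fold change with its 95% interval for the 6 tested genes among other monocarboxylate carriers (left) and the 20 tested HIF-1 target genes (right), with circles for Sen(IR) against Prol, squares for Sen(IR)+UK5099 against Sen(IR) and triangles for Sen(IR)+CTPI2 against Sen(IR), filled where called. On the right, 13 circles are called higher and 11 squares called lower, and on the left SLC16A13 and SLC16A14 are higher with UK5099 (1.76 and 1.66).

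HIF-1 binds a short core in DNA, written here as ACGTG or GCGTG, so the sequence before the start of 5 members that changed, or that contrast with LDHA, is shown. The sequences are from RefSeq (GRCh38.p14), where 7 of the 9 members had an entry (SLC16A1 and SLC16A6 did not). They run 5′ to 3′ on the gene's strand, from 250 bases before a RefSeq start. Each stops ahead of the first base in the window that lies in an exon of the gene in GENCODE v44. The windows of SLC16A3, SLC16A9 and LDHB lie inside the annotated span of the gene, so that exons of other transcripts can lie further upstream. Capitals mark the core on either strand. CACGTG, which reads the same on both strands and contains ACGTG, is the E-box bound by MYC-type factors. LDHA, SLC16A3 and SLC16A9 have several windows, of which the one with fewest exon bases, and then furthest upstream, was taken.
LDHA (chr11:18394313-18394559, plus strand): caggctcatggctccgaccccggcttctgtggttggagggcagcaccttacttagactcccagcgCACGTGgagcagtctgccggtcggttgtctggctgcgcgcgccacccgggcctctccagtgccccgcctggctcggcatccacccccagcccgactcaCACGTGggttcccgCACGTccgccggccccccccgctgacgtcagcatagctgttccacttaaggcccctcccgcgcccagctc
LDHB (chr12:21657972-21658092, minus strand): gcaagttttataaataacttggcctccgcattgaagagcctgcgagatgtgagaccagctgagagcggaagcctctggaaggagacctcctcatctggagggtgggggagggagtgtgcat
SLC16A3 (chr17:82228792-82229041, plus strand): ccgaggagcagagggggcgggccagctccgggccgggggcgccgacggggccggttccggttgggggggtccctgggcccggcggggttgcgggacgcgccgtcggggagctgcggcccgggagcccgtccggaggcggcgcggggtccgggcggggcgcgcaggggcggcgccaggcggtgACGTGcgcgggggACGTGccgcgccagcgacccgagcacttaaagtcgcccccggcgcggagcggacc
SLC16A4 (chr1:110391083-110391276, minus strand): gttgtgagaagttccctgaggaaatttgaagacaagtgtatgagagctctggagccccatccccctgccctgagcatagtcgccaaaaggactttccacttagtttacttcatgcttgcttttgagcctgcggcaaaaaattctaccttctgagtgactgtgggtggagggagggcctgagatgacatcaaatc
SLC16A9 (chr10:59710080-59710329, minus strand): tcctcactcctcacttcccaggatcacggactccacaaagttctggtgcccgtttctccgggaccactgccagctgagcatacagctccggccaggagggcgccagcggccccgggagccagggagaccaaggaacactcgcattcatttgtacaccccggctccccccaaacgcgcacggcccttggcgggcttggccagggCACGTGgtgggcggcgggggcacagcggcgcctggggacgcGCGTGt
The LDHA sequence held 3 marked stretches, 2 of them E-boxes, and that of LDHB, which is only 121 bases long here, held none. SLC16A3 had 2 marked stretches, SLC16A9 had 2 with 1 E-box, and SLC16A4 had none. Over windows of 250 bases before 35116 starts in RefSeq, 43.2% held the core and 6.34% held the E-box. Among the 15 such windows of the 7 members, 8 held the core. The other members with an entry, BSG and SLC16A7, are not printed although both were called in a comparison. For BSG, the window chr19:572346-572595 held the core, with 1 E-box, and chr19:571033-571282 held neither. Neither SLC16A7 window held the core. A match of these letters is a description of the window, not a binding site.

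The genes whose levels ran most alike over the 12 libraries were sought among 9609 genes with a mean log2 CPM above 3. Pearson's r is given as a description, because the libraries fall into groups and share their scaling. LDHA was most like MYL9 (0.999), a myosin light chain, NPTX1 (0.997) and YBX3 (0.996). SLC16A9 was most like MIA3, ATP6V1A and PKD2 (0.994 each), with ATP6V1A, a subunit of the lysosomal proton pump, higher with UK5099 (1.14). SLC16A4 was most like SAT1 (0.997), which acetylates polyamines, PPP1R3C (0.997) and SCN4B (0.996). For SLC16A3 the closest were SRPRB (0.993), MFGE8 (0.992) and TMEM132A (0.991), and for BSG they were CERCAM (0.997), UBAC2 (0.996) and G6PC3 (0.995). SLC16A6 was followed by IPMK (0.991), MAGT1 (0.991) and TMED10 (0.989), and SLC16A7 by PAG1 (0.977), SOCS5 (0.97) and UGCG (0.97).

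Some counts could hold reads of other genes. The strand setting of the counting is not given in the sources used here, and 3.64% of the exon bases of SLC16A1 overlap its antisense gene SLC16A1-AS1, 5.22% of those of SLC16A3 overlap CSNK1D, 4.2% of those of SLC16A4 overlap LAMTOR5-AS1, 3.55% of those of SLC16A6 overlap ARSG and 3.17% of those of BSG overlap BSG-AS1. On the same strand, SLC16A3 shares 0.66% with MIR6787. The gene that shares exon bases with LDHB is ENSG00000285854. Processed copies of the members took few reads: the 12 copies listed had at most 24 counts in a library, and the LDHA copies together at most 0.146% of the LDHA counts.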

How the data were processed

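RNA was sequenced from 12 libraries of MRC5 cells in 4 groups of 3, mapped by their labels. The deposited table holds raw counts: after trimming (Trimmomatic 0.36) and alignment of the read pairs to GRCh38 (STAR 2.5.2b), the authors ran featureCounts of Subread 1.5.2 on exons and kept uniquely placed reads. Strand is not given in the sources used here. The quasi-likelihood test of edgeR 4.0.16 (R 4.3.3) was applied after filterByExpr and TMM scaling, using glmQLFit and glmQLFTest in a single fit of 12 libraries with no replicate term, with Benjamini-Hochberg adjustment across 16251 genes. The SE is the absolute log2 fold change divided by the square root of F. The limits for a call were an adjusted p of 0.05 and an absolute log2 fold change of 0.5. The test was checked on simulated data. Positions and lengths are from GENCODE v44.

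The members and the lists (other carriers, other lactate dehydrogenases, pyruvate genes, NADH shuttles, HIF-1 targets, fibroblast, epithelial, endothelial and leukocyte markers, and arrest genes) were chosen with earlier results of these data known. Named genes are the 9 members, up to 3 called genes with the largest change per list and comparison, the 3 genes most correlated with each member called in Sen(IR) against Prol or with either inhibitor against Sen(IR), and the markers. SLC16A12, ME3, GOT1, ENO1, ALDOC, PFKFB4, SLC5A8 and LDHC are outside this rule and were named after their values were seen. Same-numbered libraries deviated together with r of −0.0511 to 0.0423 (0 of 18 pairs above 0.1), which gave no sign of pairing by number. These values cannot show that same-numbered libraries were handled apart. Alternatives were RLE and upper-quartile scaling, library totals, DESeq2 1.42.0, no filter, only the compared groups, a replicate block, other limits, and leaving out each library.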

Additional observations from a re-analysis of the deposited data

How the results depend on the processing

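Where a log2 fold change had to exceed 1 in size, the members called went from 6 to 3 in Sen(IR) against Prol (24.8% of all genes tested), from 5 to 2 with UK5099 against Sen(IR) (9.3%) and against CTPI2 (8.72%), from 7 to 4 with UK5099 against Prol (30.6%) and from 6 to 2 with CTPI2 against Prol (24.8%). With no fold limit, 9 were called with UK5099 against Sen(IR) (45.4% of all genes) and 8 against CTPI2 (44.5%). RLE scaling, DESeq2, no filter on low counts, an unadjusted p and the fit of the 2 compared groups alone left the side of the limits the same in all 54 member differences each. Upper-quartile scaling, which moved the median of all genes by 0.12 in Sen(IR) against Prol, gave SLC16A1 0.08 there and 0.03 with CTPI2 against Prol, and the LDHB call against Prol with UK5099 was lost (−0.45). Library totals gave 0.0046 for SLC16A1 in Sen(IR) against Prol and 0.0024 for LDHA with CTPI2 against Sen(IR), and lost the LDHB call (−0.46). The cause was not tested. The orders of group means held for all 9 members with RLE, 8 with upper-quartile and 7 with library totals. With CTPI2 against Sen(IR), signs turned when a library was left out: SLC16A7 ranged from −0.21 to 0.03, SLC16A9 from −0.10 to 0.01 (2.9e-04 without Sen(IR) replicate 2), BSG from −0.06 to 0.01 and LDHA from −0.04 to 0.0041. Leaving out a library kept 309 of 324 member results, with 6 to 7 members called in Sen(IR) against Prol, 5 with UK5099 against Sen(IR) or CTPI2, 0 with CTPI2 against Sen(IR), 7 to 8 with UK5099 against Prol and 6 to 7 with CTPI2 against Prol. SLC16A1 passed with UK5099 against Prol without Prol replicate 1 (−0.53) or Sen(IR)+UK5099 replicate 2 (−0.50) or 3 (−0.52), and SLC16A7 with CTPI2 against Prol without Prol replicate 3 (−0.57) or Sen(IR)+CTPI2 replicate 3 (−0.66). The LDHA share from raw counts was 67.5, 64, 47.4 and 62.6% in Prol, irradiated, UK5099-treated and CTPI2-treated cells, and, as choices made after seeing the data, 54.7, 50.8, 34.4 and 49.3% per canonical transcript and 40.6, 36.9, 22.9 and 35.5% with an LDHB length without shared bases. With the replicate block, 1 of 54 calls changed, SLC16A7 with CTPI2 against Prol (−0.50, edgeR adjusted p 3.05e-04). With Sen(IR) replicate 1 left out, 9 HIF-1 targets were lower with UK5099 and 0 higher.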
